A study of Mus musculus with 2 samples.

Results

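Among the places where 5-hydroxymethylcytosine (5hmC) was called lower without TET2, 856 autosomal regions stood alone and still carried a called 5hmC peak in the knockout. A region entered this set by 3 conditions. It was called higher in Tet2+/+ mast cells with the Tet2-/- library as control, it overlapped a peak of the Tet2-/- library by at least 1 bp, and no other such region had its summit within 10 kb. The set holds 31.4% of all 2724 regions called higher in Tet2+/+ (95% exact interval 29.7 to 33.2), and 37.7% (35.7 to 39.7) of the 2270 autosomal ones that stood alone. Members were selected on measured values, the direct call between both libraries and the Tet2-/- peak call. Tet2+/+ coverage above an expectation made from the Tet2-/- library is thus a condition of membership. A difference in coverage between the libraries is partly built in and is described without a test.

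TET2 is a dioxygenase that oxidises 5-methylcytosine in DNA to 5hmC, an early step on the way to demethylation. In blood cells 5hmC is known to mark active and poised enhancers and gene bodies, and TET1 and TET3 can also make it, so a cell without TET2 does not have to lose the mark everywhere. Here a lowered peak counts as kept when a peak was still called in Tet2-/-, and a missing call does not show that 5hmC was absent. What follows describes how high, how wide and how precisely placed the remaining peaks were.

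The cells were bone marrow-derived mast cells of C57BL/6 mice aged 6 to 12 weeks, grown with interleukin-3. One group was Tet2+/+ and the other Tet2-/-, with no treatment in either, and the labels do not describe the knockout allele. Cells positive for the stem cell factor receptor Kit and the IgE receptor chain FcεRIα were sorted at 4 weeks, since differentiation was reduced in knockout cultures according to the labels. Each genotype had 1 library, from 2 animals whose pooling is not stated. Sequenced fragments were those on which 5hmC had been glucosylated, tagged with biotin and pulled down. No expression was measured, so the sorted cell type could not be checked against marker genes. With 1 library per genotype there is no replicate spread and no test of genotype. Intervals of fragment counts and of single-region ratios cover counting error only. Those of medians and shares treat the regions as independent draws. None covers the spread between animals or libraries, and amplified fragments are not independent molecules.

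Each library has its own peak list, here called own peaks, with 18160 peaks in Tet2+/+ and 16875 in Tet2-/-. Height is given as the number of fragments that cover a peak's summit, recovered from the deposited statistics. Tet2-/- was the deeper library by a factor of 1.18, so its fragments were multiplied by 0.848 before any ratio was formed. Every one of the 856 regions overlapped exactly 1 Tet2+/+ own peak, and 855 overlapped exactly 1 Tet2-/- own peak. The 856 pairs of own peaks shared no peak among them. On the autosomes 10912 Tet2+/+ own peaks had a Tet2-/- partner, and 9.32% of these overlapped a region called higher in Tet2+/+. Pairs with no direct call in either direction numbered 9706 and serve below as the uncalled pairs. Positions are in the mm9 build.

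The 856 regions were tall peaks in Tet2+/+ and ordinary ones in Tet2-/-. Tet2+/+ summits had 15 to 102 fragments with a median of 32 (95% interval 31 to 33), and Tet2-/- summits had 9 to 91 with a median of 19 (19 to 20). After depth scaling the Tet2-/- median was 16.1 fragments. Of the Tet2+/+ peaks, 91.9% were among the strongest 25% of their own list by −log10 q, the deposited significance. Of the Tet2-/- peaks, 33.6% were among the strongest 25% and 16.8% among the weakest 25% of theirs.

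Coverage at the Tet2+/+ own summit was a median of 1.88 times the scaled coverage at the Tet2-/- own summit (1.84 to 1.91). The interquartile range was 1.61 to 2.16. Each count was taken at that library's own summit, so the ratio compares peak heights and not coverage at a shared position. No ratio fell below 1.08, and the highest was 3.63. It reached at least 2 in 339 regions (39.6%), against 4.67% of all 10912 pairs, and at least 3 in 13. In 128 regions it was below 1.5, and no share over all pairs was computed for this limit or for 3. The ratio's own counting interval lay above 1 in 494 regions (57.7%), against 6.49% of all pairs. Because the rule used this contrast, nothing is read from either excess. In the uncalled pairs the median ratio was 1.11. Removing that general difference leaves a median of 1.70 in the 856 regions. In 11 regions the Tet2-/- peak had as many fragments as the Tet2+/+ peak or more before scaling.

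**Figure D1:**
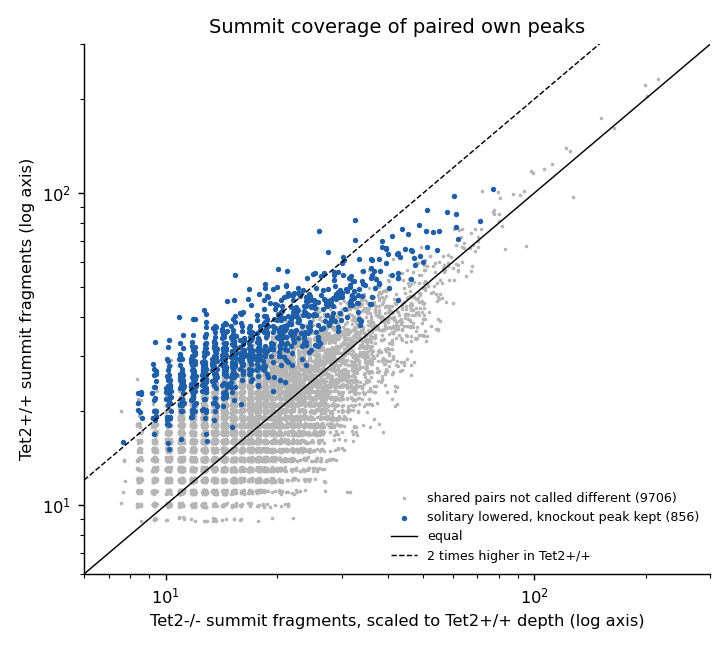
Summit fragments of paired own peaks, Tet2+/+ on the vertical and depth-scaled Tet2-/- on the horizontal axis, both on log scales with a small random offset to separate whole numbers. The 856 regions (blue) lie above the line of equal coverage, 339 of them on or above the dashed line at 2 times, and the 9706 uncalled pairs (grey) lie around and above equality.

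The deposited fold of the direct call was larger than these ratios, with a median of 3.37 (interquartile range 2.88 to 3.98). It divides Tet2+/+ fragments by an expectation made from the Tet2-/- library, which had a median of 8.48 fragments here. Tet2-/- own summits at the same regions had 16.1 scaled fragments. Expectation and summit coverage are different quantities, so fold and ratio cannot be exchanged.

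The region of highest significance, on chromosome 5 at 75782571 to 75782924, had 76 Tet2+/+ and 31 Tet2-/- fragments, a ratio of 2.89 (1.88 to 4.54). Its Tet2+/+ peak was 667 bp wide and its Tet2-/- peak 382 bp, with summits 2 bp apart. The knockout peak was thus lower and narrower around the same point. On the same chromosome at 75716360 to 75716630, 66211 bp from summit to summit, lay another of the 856 regions, where a Tet2+/+ peak of 765 bp stood over a Tet2-/- peak of 259 bp. The region at 35145295 to 35145651 of chromosome 5 had 81 and 38 fragments and widths of 710 and 420 bp. On chromosome 9 at 118876025 to 118876365 there were 39 and 14 fragments, a ratio of 3.29 (1.74 to 6.55), and widths of 567 and 274 bp. Here the Tet2-/- peak was the lowest among the 10 regions of highest significance.

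Tall peaks in both libraries were found on chromosome 12 at 55892713 to 55893024, with 80 Tet2+/+ and 57 Tet2-/- fragments and a ratio of 1.66 (1.16 to 2.37). A similar case lay on chromosome 11 at 72694219 to 72694497, with 77 and 52 fragments and a ratio of 1.75 (1.21 to 2.53). Chromosome 10 at 95506592 to 95506947 had 70 and 39 fragments and widths of 674 and 428 bp. Among the 10 regions of highest significance, the Tet2+/+ peak was wider in 10 and the Tet2-/- peak lay wholly inside it in 9. The exception was chromosome 1 at 93478807 to 93479194, where 46 and 18 fragments gave a ratio of 3.01 and the 2 peaks were staggered. Summits in these 10 were at most 84 bp apart, and each Tet2-/- summit lay inside the lowered region.

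**Figure D2:**
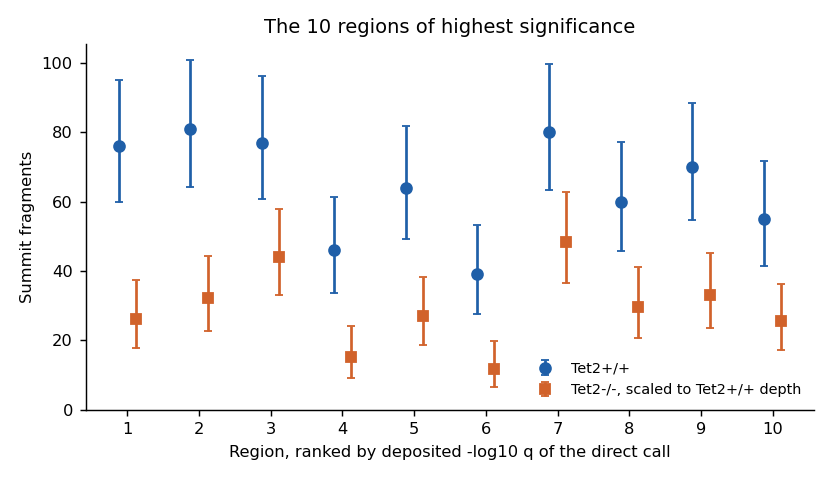
Summit fragments in Tet2+/+ (circles) and Tet2-/- scaled to the Tet2+/+ depth (squares) for the 10 regions of highest deposited −log10 q, with 95% exact Poisson intervals that cover counting error. Tet2+/+ values run from 39 to 81, and region 6 has the lowest value in each library.

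The largest ratio among the 856 was on chromosome 16 at 44754248 to 44754813, where 40 Tet2+/+ fragments stood over 13 in Tet2-/-, a ratio of 3.63 (1.90 to 7.39). Its Tet2-/- peak had the smallest width found, 200 bp, inside a Tet2+/+ peak of 672 bp, and its summit lay 238 bp away. Next came chromosome 3 at 114592982 to 114593383, with 55 and 18 fragments and a ratio of 3.603 (2.08 to 6.52). On chromosome 13 at 6507193 to 6507596 the counts were 33 and 11. At the other end, chromosome 17 at 80909099 to 80909301 had 46 Tet2+/+ and 50 Tet2-/- fragments, a ratio of 1.08 (0.71 to 1.65). Chromosome 9 at 51607239 to 51607483 had 80 and 85 fragments, a ratio of 1.11 (0.81 to 1.52), with widths of 652 and 658 bp and summits 2 bp apart. In these last 2 regions the counting interval of the ratio included 1 at this depth, although both carry a direct call. The direct call used expectations of 16.1 and 36.5 fragments, while the scaled Tet2-/- own summits had 42.4 and 72.1.

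Peaks that were kept without TET2 were narrower. The median width was 517 bp in Tet2+/+ (505 to 528) and 364 bp in Tet2-/- (353 to 376). Within pairs the Tet2+/+ peak exceeded its partner by a median of 150 bp (139 to 162), with an interquartile range of 76 to 215 bp. It was the wider one in 792 of 856 regions (92.5%), against 58.0% of all pairs. It was wider by at least 100 bp in 581 (67.9%), against 27.5% of all pairs, and by at least 200 bp in 261. No share over all pairs was computed at 200 bp. A called width depends on how much of a peak clears the caller's threshold, so a lower peak is called narrower, and widths come from the same coverage that chose the regions.

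Narrowing came from both ends. The Tet2-/- peak began a median of 72 bp inside the left end of the Tet2+/+ peak (66 to 78) and ended 70 bp inside its right end (62 to 78). It was nested in the Tet2+/+ peak in 570 regions (66.6%), against 30.8% of all pairs. In 19 (2.22%) the Tet2+/+ peak lay inside the Tet2-/- peak, against 19.1% of uncalled pairs. In 267 regions the peaks were staggered, for which no share over all pairs was computed. Of the 2 ends of a pair, the smaller inset had a median of 24 bp (19 to 30) and the larger one of 118 bp (111 to 124).

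The lowered region itself was shorter than either peak, with a median width of 252 bp (246 to 258), and covered a median of 51.5% of the Tet2+/+ peak. Its summit was the Tet2+/+ own summit in 478 regions and lay within 20 bp of it in 813 (95.0%). Both lists take the summit from the same Tet2+/+ coverage, so this follows from how they were made. The Tet2-/- peak spanned the whole lowered region in 419 cases and its summit in 814 (95.1%). In the other regions the summit of the lowered region lay outside the knockout peak.

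**Figure D3:**
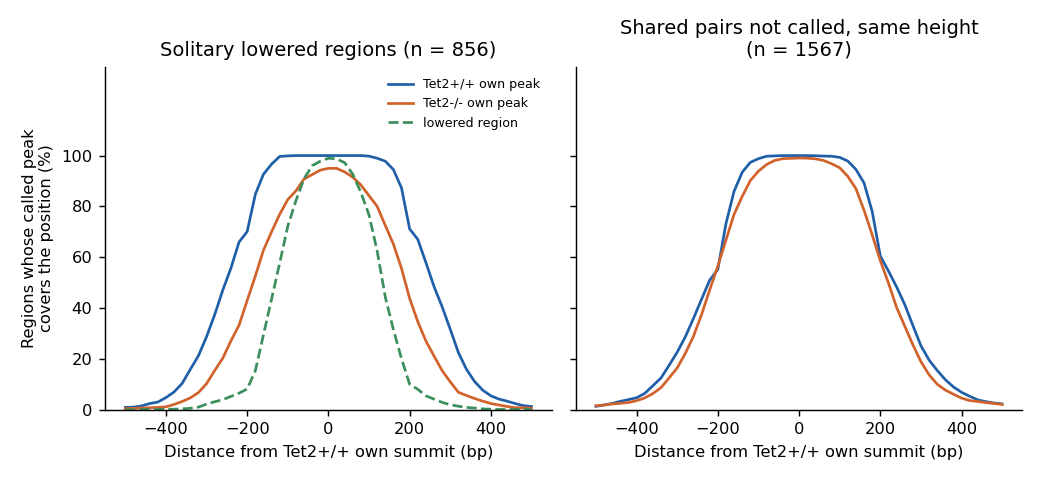
Percent of regions in which the called Tet2+/+ own peak (blue), Tet2-/- own peak (orange) or lowered region (green, dashed) covers a position, by distance from the Tet2+/+ own summit in bp. Left, the 856 regions, where the orange curve is narrower on both sides and the green one narrower still; right, 1567 uncalled pairs of 26 to 40 Tet2+/+ fragments, where the orange curve is lower at most distances, by less (78.5% against 89.2% at 160 bp on the right of the summit).

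The greatest narrowing was on chromosome 19 at 55305597 to 55306342, where a Tet2+/+ peak of 785 bp stood over a Tet2-/- peak of 205 bp, with 33 and 15 fragments. Chromosome 17 at 64032802 to 64033059 had widths of 797 and 309 bp with summits 5 bp apart. Chromosome 10 at 110553665 to 110553873 had widths of 675 and 212 bp over 24 and 12 fragments. In each of these the knockout peak lay wholly inside the Tet2+/+ peak.

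The Tet2-/- peak was the wider one in 64 regions. The extreme case was chromosome 2 at 59976018 to 59976291, where the Tet2-/- peak was 589 bp and the Tet2+/+ peak 404 bp wide, although Tet2+/+ had 56 fragments and Tet2-/- 35. On the same chromosome at 11698156 to 11698364 the widths were 682 and 509 bp, over 44 and 53 fragments. The median ratio of these 64 regions was 1.75 (1.66 to 1.87). The regions narrowed by 300 bp or more, also 64, had one of 2.11 (1.99 to 2.26). Across the 856 regions the rank correlation of ratio and width difference was 0.17, against 0.37 over the 9706 uncalled pairs. All points share the same 2 libraries, and the rule limited the range of the ratio, so the coefficients only describe these peaks.

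Most kept peaks had their summit close to that of the Tet2+/+ peak, and the same held in uncalled pairs. The uncalled pairs had a median distance of 50 bp (49 to 51), with an interquartile range of 21 to 98 bp. Summits of the 2 own peaks lay a median of 48 bp apart (43 to 53), with an interquartile range of 21 to 88 bp and a maximum of 378 bp. In 213 regions the distance was at most 20 bp, in 171 (19.98%) it was over 100 bp, against 23.9% of all pairs, and in 18 over 200 bp. The Tet2-/- summit had the lower coordinate in 448 regions, the higher in 401 and the same in 7. It fell inside the Tet2+/+ peak in 851 regions (99.4%) and inside the lowered region in 749 (87.5%). Shares over all pairs were not computed for these positions or for distances of at most 20 bp or over 200 bp. The rank correlation of shift and ratio over the 856 regions was 0.03. Regions shifted by at most 20 bp had a median ratio of 1.89 (1.81 to 1.93), and those shifted by over 200 bp one of 1.97 (1.70 to 2.16).

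The largest shift was on chromosome 1 at 69547113 to 69547312, where peaks of 742 and 710 bp had summits 378 bp apart, with 41 and 27 fragments. On chromosome 1 at 189097381 to 189097712 the summits were 345 bp apart and the lowered region overlapped the Tet2-/- peak by 132 bp. On chromosome 10 at 82385468 to 82385746 the shift was 308 bp between peaks of 740 and 597 bp. In the first and last of these the knockout peak still lay inside the Tet2+/+ peak. Of the 18 regions shifted by over 200 bp, 4 had the Tet2-/- summit inside the lowered region.

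Width and shift both varied with height, so they were set beside uncalled pairs of like Tet2+/+ height. Among pairs with 26 to 40 Tet2+/+ fragments, the interquartile range of the 856, there were 464 lowered regions and 1567 uncalled pairs. Only the Tet2+/+ height was limited to a like range. Its median was still 31.5 fragments (31 to 32) in lowered regions and 29 (29 to 30) in uncalled pairs. The Tet2-/- peaks of these pairs had a median of 19 fragments in lowered regions and 30 in uncalled pairs, a gap that the direct call itself selects, so a larger width difference in lowered regions is partly built in. The median width difference was 152.5 bp in the lowered (141 to 165) and 40 bp in the uncalled pairs (34 to 44). The median shift was 53 bp (48 to 59) and 38 bp (35 to 41). Over the 856 regions the rank correlation of Tet2-/- fragments and shift was -0.18. The part of the gap in Tet2-/- height in the shift was not tested. In the class of 15 to 19 fragments the median shift of lowered regions was 87.5 bp, with a wide interval of 39 to 127 bp. It was 26 bp (20 to 32) at 50 fragments and over, where uncalled pairs had 10 bp (7 to 18). The width difference of lowered regions was 173 bp (157 to 188) at 20 to 24 fragments and 110 bp (90 to 139) at 50 and over. In each of the 6 height classes its interval lay above that of the uncalled pairs.

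**Figure D4:**
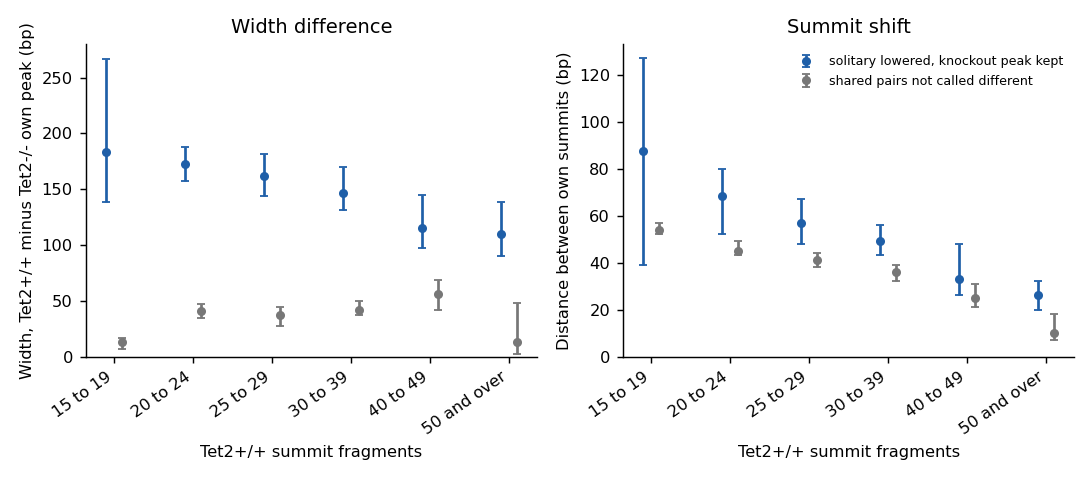
Median width difference (left, Tet2+/+ minus Tet2-/- own peak, bp) and median distance between own summits (right, bp) by class of Tet2+/+ summit fragments, with 95% order-statistic intervals. Lowered regions (blue) have the larger median in every class in both panels, and intervals for the shift overlap those of the uncalled pairs (grey) at 15 to 19 and 40 to 49 fragments.

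Some uncalled pairs fell in the same ranges of height and ratio. Within 26 to 40 fragments and ratios of 1.61 to 2.16, 239 lowered regions and 180 uncalled pairs were found. Their Tet2-/- peaks were alike in width, with medians of 360 bp (347 to 375) and 364 bp (345 to 385). Their Tet2+/+ peaks were not, with 499 bp (488 to 529) in lowered regions and 424.5 bp (401 to 453) in uncalled pairs. The median shift was 49 bp (43 to 57) and 39 bp (32 to 47). Inside these ranges lowered regions still had slightly more Tet2+/+ fragments, 31 against 28, and a higher ratio, 1.88 against 1.72. Their part in the width and in the shift was not tested.

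Counts over a wider window, which includes the lowered peak itself, were also lower in Tet2-/-. The caller's expectation in an own list, where above background, comes in steps of 1 fragment per 10 kb, so it was read as the number of fragments in that window. Both windows were above background in 778 of the 856 regions. In 73 (8.53%) only the Tet2+/+ window was, against 1.28% of the 1567 uncalled pairs of like height. Only the Tet2-/- window was above background in 0 of either set. The ratios below leave out regions without both windows, and so more lowered regions whose Tet2-/- window was at background. Tet2+/+ windows held a median of 149 fragments (146 to 153) and Tet2-/- windows 107 scaled fragments (105.1 to 109.4), a median ratio of 1.39 (1.37 to 1.41). The count was higher in Tet2+/+ at 775 of the 778 (99.6%), against 1315 of 1543 uncalled pairs of like height (85.2%). At the 1543 uncalled pairs of like Tet2+/+ height with both windows above background, Tet2+/+ windows held 149 fragments as well (147 to 151), but the ratio was 1.18 (1.17 to 1.19). The difference between the windows had a median of 43.2 fragments (41.1 to 44.8) in lowered regions and 22.1 (20.6 to 23.4) in uncalled pairs. In lowered regions each window includes the peak that the direct call selected, so these counts partly restate the choice of regions. Loss at the peak and loss beside it were not separated, and nothing is read about the surroundings.

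In each library taken alone, most of these regions had no second own peak nearby. No other Tet2+/+ own peak had its summit within 10 kb in 575 regions (67.2%), and no other Tet2-/- own peak in 538 (62.9%). Within 50 kb the median was 2 further own peaks in each library. The nearest other lowered region was a median of 124145 bp away, which the rule set to over 10 kb. A region called higher in Tet2-/- lay within 10 kb of 14 of the 856, and none of their own peaks overlapped one. Shares over all own peaks were not computed beside these counts, so nothing is read from them.

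Whether a solitary lowered region kept a knockout peak went with its height in Tet2+/+. Keeping one needs both a Tet2-/- peak call and a direct call above Tet2-/-. At low heights few regions can pass both thresholds, so the trend is partly built in. None of 457 regions with under 15 fragments at the summit kept one, so the share there is at most 0.656%. The share was 27.7% (23.5 to 32.1) at 20 to 24 fragments, 64.5% (58.6 to 70.0) at 25 to 29 and 92.2% (88.7 to 94.9) at 30 to 39. At 40 to 49 fragments 143 of 144 kept one, and at 50 and over 85 of 85. The 1414 solitary lowered regions without a Tet2-/- peak had a median of 17 fragments (16 to 17), against 32 in the 856. Their deposited fold was higher, 4.45 (4.39 to 4.50) against 3.37 (3.31 to 3.46), and their significance lower, with a median −log10 q of 4.08 against 5.19. The Tet2+/+ peaks under them, found at 1268, were 335 bp wide (327 to 342) against 517 bp. The lowest Tet2-/- peak among the 856 had 9 fragments, and 5hmC below what a peak call needs was not detectable at this depth, so a missing call does not show that 5hmC was absent.

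**Figure D5:**
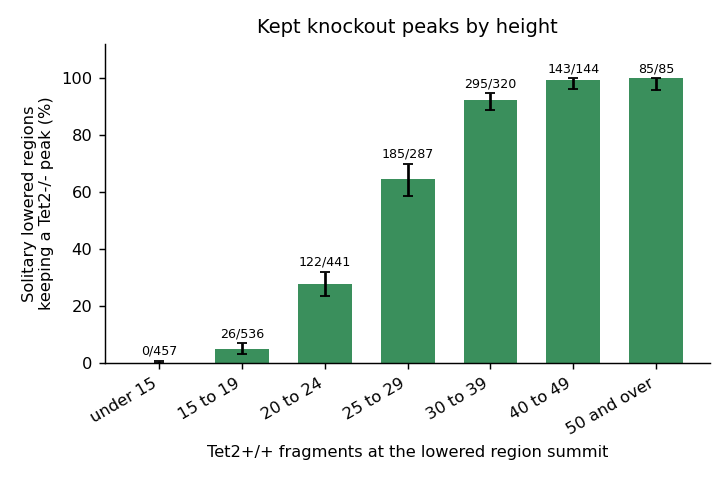
Percent of solitary lowered regions that overlap a Tet2-/- own peak, by Tet2+/+ fragments at the summit of the lowered region, with 95% exact binomial intervals and the counts above each bar. The share runs from 0 of 457 below 15 fragments to 85 of 85 at 50 and over.

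Lowered regions with a neighbour had values close to those of the solitary ones. The 146 lowered regions that had a neighbour within 10 kb and kept a knockout peak had a median ratio of 1.96 (1.89 to 2.08), a width difference of 143 bp (128 to 166) and a shift of 55 bp (40 to 68). Each of these intervals overlaps the one for the 856 regions. A knockout peak was kept in 33.6% (29.2 to 38.3) of the 434 lowered regions with such a neighbour, and the interval overlaps that of the solitary ones.

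The reverse case was measured in the same way. Of 451 solitary autosomal regions called higher in Tet2-/-, 181 held an own peak of both libraries. Of all autosomal Tet2-/- own peaks, 2.80% overlapped a region called higher in Tet2-/-, solitary or not. At the 181 the Tet2-/- peak was the wider one by a median of 92 bp (72 to 117), and the Tet2+/+ peak was wider in only 34. Tet2+/+ peaks were nested in their Tet2-/- partner in 89 of the 181 (49.2%), against 19.1% of uncalled pairs. The median shift was 51 bp (40 to 59). In both directions the median peak of the lower library was the narrower one. Scaled coverage in Tet2-/- was 1.83 times that in Tet2+/+ (1.78 to 1.93) at these 181. They too were chosen by the direct contrast, so the ratio and the width difference are partly built in.

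The 856 regions were found on all 19 autosomes, from 19 on chromosome 18 to 73 on chromosome 2. They made up 7.84% (7.35 to 8.36) of the Tet2+/+ own peaks with a Tet2-/- partner. The share was highest on chromosome 13, at 10.3% (7.95 to 13.1), and lowest on chromosome 18, at 5.48% (3.33 to 8.42), and the interval included the overall share on 17 of the 19. The exceptions were chromosome 13 and chromosome 11, at 5.71% (4.21 to 7.54). The share of solitary lowered regions keeping a knockout peak included the overall value on all 19. The Tet2+/+ peak was wider in most pairs of every chromosome, with a median difference from 97 bp on chromosome 16 to 188 bp on chromosome 19.

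At the limits of the rule, the members nearest to another lowered region were on chromosome 13 at 34889550 to 34889838, with the next summit 10092 bp away, and a pair on chromosome 16 at 29948952 to 29949190 and 29959144 to 29959441, whose summits were 10189 bp apart. Their ratios were 1.36, 1.47 and 1.94. The first regions left out for a near neighbour had distances of 9631, 9532 and 9482 bp and ratios of 2.09, 1.68 and 1.95. By overlap, the weakest member was chromosome 19 at 24130458 to 24130717, which shared 6 bp with a Tet2-/- peak, followed by regions sharing 11 and 16 bp. The nearest regions left out for lack of overlap were 12, 19 and 22 bp from a Tet2-/- peak.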

How the data were processed

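The submitters' processing notes name Bowtie2, an aligner, MACS2, a peak caller, and the mm9 build, while no version or option is given in the sources used here. For each library the authors deposited 2 peak lists, its own and the direct comparison, with a fold (a ratio to the expected pileup), a −log10 p and −log10 q, and a score, which is 10 times the −log10 p rounded down in all but 1 peak of each own list. Summit fragments were recovered as the whole number whose fold and Poisson tail match the deposited fold and −log10 p, within 0.001 for 100% of peaks in the 3 lists used. In a simulation 100% of 3945 fragment numbers and all 129 planted regions were returned. The depth factor is the ratio of the lowest expected pileups, 1.46 and 1.72. Own peaks were paired by largest overlap with the lowered region. Medians have 95% order-statistic intervals from the binomial distribution, shares exact Clopper-Pearson intervals, counts exact Poisson intervals, ratios exact conditional intervals; 3 counts is the limit given for a count of 0. Calculations used scipy 1.17.1, pandas 2.3.3 and numpy 2.4.6 under Python 3.11.15.

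The regions and the settings were chosen with earlier results of these data known. Regions were named by rank: 10 by −log10 q, 5 by each extreme of ratio, width difference and shift, and 3 on each side of the 10 kb limit; those nearest the overlap limit were added after their values were seen, and not every ranked region is printed. Genes, gene lists and sequence features need an mm9 genome or annotation and were not analysed here. Alternatives were other distances, overlap rules, q limits, pairings and scalings.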

Additional observations from a re-analysis of the deposited data

How the results depend on the processing

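In all, 7 results were recomputed under up to 12 alternatives. Of the 65 values, 54 stayed within the interval of the main result or, for the number of regions, within 1.5 times. Another 11 moved farther and none reversed. Distances of 5 and 20 kb, −log10 q of at least 2, the summit inside the knockout peak, X and Y included, pairing by nearest summit and exactly 1 own peak per library moved no value that far. Reciprocal overlap of at least 50% gave a kept share of 27.4%, a width difference of 163 bp, a ratio of 1.96 and a wider Tet2+/+ peak in 97.6% of pairs; this rule favours knockout peaks as short as the lowered region. With −log10 q of at least 5 there were 447 regions, a kept share of 51.2%, a shift of 42 bp and a ratio of 2.02; fewer regions follow from the limit, and the cause of the other moves was not tested. Pairs with summits within 100 bp had a shift of 34 bp by construction. The ratio was 1.59 without depth scaling and 1.70 when scaled by the median of uncalled pairs. The median distance from the lowered summit to the Tet2+/+ summit was 0 bp in each setting run. Depth limits single regions, since a kept knockout peak rests on a median of 19 fragments. No paired analysis was possible because only 1 library represents a genotype.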
